A study of Homo sapiens and Mus musculus with 9 samples.

Results

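Antisense small RNA reads of 4 human genes, MTOR, CDAN1, PLPPR5 and HCFC1, were described in HEK293 cells, a human embryonic kidney line. The 4 were chosen by their antisense read counts, as genes with some of the highest antisense peaks, out of 2272 genes with at least 1 antisense position. Those counts are therefore a description and support nothing further. Across all 4 peak lists, 5778 genes had a sense or antisense position.

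The small RNA data came from 1 capped library (Cap) and 1 library of total small RNA (Total), both from wild-type HEK293 cells with no treatment named. Per the labels' protocols, short RNA was dephosphorylated, and 1 portion was then decapped and another phosphorylated so that each could be ligated. Ribosome profiling (Ribo-seq), which sequences the fragments of mRNA that ribosomes protect, came from 4 libraries of wild-type HEK293 cells. These were starvation with a trans-RNA against ATF4 (trans2 and trans1, labelled with the same treatment), starvation alone, and control. A trans-RNA is an RNA aimed at the main reading frame of ATF4, a stress-response transcription factor. The labels do not say if trans1 and trans2 repeat 1 RNA or use a pair of RNAs, so they were kept apart. The 3 mouse liver libraries of the series were not used here. Each group had 1 library, so no difference below has a replicate check and none was tested. Intervals are exact 95% intervals of counting error only, since reads that carry no molecular identifier cannot be counted as separate molecules.

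MTOR encodes the kinase of the mTOR complexes, which couple amino acid supply to growth and translation. CDAN1 encodes codanin 1, which binds the histone chaperone ASF1 and is mutated in a congenital dyserythropoietic anaemia. HCFC1 encodes host cell factor 1, a chromatin cofactor of transcription factors that the glycosyltransferase OGT cleaves. PLPPR5 encodes a membrane protein related to the phospholipid phosphatases and best known from neurons. Small RNAs that lie antisense to an mRNA can pair with it, and a cap is the modified 5′ end that RNA polymerase II transcripts receive.

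The antisense lists held 1810 positions with 78796 reads in Cap and 2424 positions with 119784 reads in Total, with no position under 4 reads. The sense lists held 637679 reads in Cap and 536974 reads in Total. Footprint depth was 7328302 reads in trans2, 5992585 in trans1, 9177346 in starvation and 10403605 in control. Of 7 HEK293 markers looked up, NEFL had 71.0 to 93.0 footprints per 1000000 recovered reads (CPM) and CDH2 had 28.5 to 47.7 CPM over the 4 libraries. The other 5 markers, and the markers of other cell types, had no recovered value, so contamination by other cells could not be read.

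The 4 genes together held 16528 of the antisense reads listed in Cap, or 20.98% (20.7 to 21.3%), and 10779 of those listed in Total, or 8.999% (8.84 to 9.16%). Most of these reads sat at a single nucleotide or within a run of a few nucleotides. MTOR, CDAN1 and PLPPR5 had more reads in Cap, and HCFC1 had more in Total. The list totals count only positions that reached the list, so they are not library depths.

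In CDAN1 every antisense read lay at 1 position, 147 nt past the start codon and labelled as coding. That position had 6206 reads (6053 to 6362) in Cap and 435 reads (395 to 478) in Total. It was the highest single antisense position of any gene in Cap, and CDAN1 ranked 22 by the highest position in Total. As a share of its list, CDAN1 held 7.88% in Cap and 0.363% in Total, a ratio of 21.7 (19.7 to 24.0). Without scaling to the list, the ratio was 14.3. With a recovered coding length of 3684 nt, the position lies 3.99% of the way into the coding region.

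In MTOR the position 2024 nt past the start codon held 4320 reads (4192 to 4451) in Cap and 214 reads (186 to 245) in Total. A second position at 2022 nt had 9 reads in Cap and was not listed in Total. The main position therefore carried 99.8% of the antisense reads of MTOR in Cap and 100% in Total. It lies 26.5% of the way into a recovered coding length of 7650 nt. As a share of its list, MTOR held 5.49% in Cap and 0.179% in Total, a ratio of 30.8 (26.8 to 35.4), or 20.2 without scaling. By the ratio, MTOR stood at place 4 and CDAN1 at place 12 among the 775 genes listed antisense in both libraries.

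PLPPR5 differed in shape, with a run of 5 neighbouring nucleotides before the start codon instead of 1. The highest, at -224 nt, had 2671 reads in Cap and 805 in Total. Its neighbour at -223 nt had 1316 reads in Cap and 466 in Total, and -225 nt had 604 in Cap and 127 in Total. The outer positions were low, with 102 reads in Cap and 21 in Total at -222 nt, and 10 in Cap and 4 in Total at -226 nt. The order of the 5 positions by count was the same in both libraries, and -224 nt held 56.8% of the PLPPR5 antisense reads in Cap and 54.5% in Total. One further position, at 1104 nt and labelled as coding, had 53 reads in Total and was not listed in Cap. Summed, PLPPR5 had 4703 reads in Cap and 1476 in Total, and the ratio of list shares was 4.84 (4.57 to 5.14).

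The Cap excess was not the same along the PLPPR5 run. The ratio of list shares was 7.23 (5.96 to 8.83) at -225 nt, 5.04 (4.66 to 5.46) at -224 nt and 4.29 (3.86 to 4.78) at -223 nt. At the lower outer positions it was 7.38 (4.58 to 12.4) at -222 nt and 3.80 (1.10 to 16.6) at -226 nt, so the ratios did not run in 1 direction along the stretch. The intervals of -225 and -223 nt do not overlap, which speaks only of counting error in 1 library each.

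HCFC1 was the one of the 4 with more antisense reads in Total. Its main position, 3839 nt past the start codon and 62.9% into a recovered coding length of 6108 nt, had 1054 reads (991 to 1120) in Cap and 8085 reads (7910 to 8263) in Total. Close by, 3842 nt had 164 reads in Cap and 391 in Total, 3841 nt had 43 in Cap and 139 in Total, and 3838 nt had 7 in Cap and 27 in Total. Total alone listed 3836 nt with 5 reads and 3840 nt with 7 reads. Cap alone listed 6193 nt with 9 reads and 6194 nt with 13 reads, which carry the coding label although they lie 86 and 87 nt past the recovered coding length.

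The HCFC1 sum was 1290 reads in Cap and 8654 in Total, a ratio of list shares of 0.227 (0.214 to 0.240). Without scaling, Total had 6.71 times the reads of Cap. By position, the ratio was 0.198 (0.186 to 0.211) at the main position, 0.394 (0.145 to 0.928) at 3838 nt, 0.470 (0.326 to 0.666) at 3841 nt and 0.638 (0.528 to 0.767) at 3842 nt. The interval of the main position lies below those of 3841 and 3842 nt and inside that of 3838 nt. The main position accordingly held 81.7% of the HCFC1 antisense reads in Cap and 93.4% in Total. The 4 genes thus differ in which library lists more reads and in how sharply the reads sit at 1 nucleotide.

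**Figure D1:**
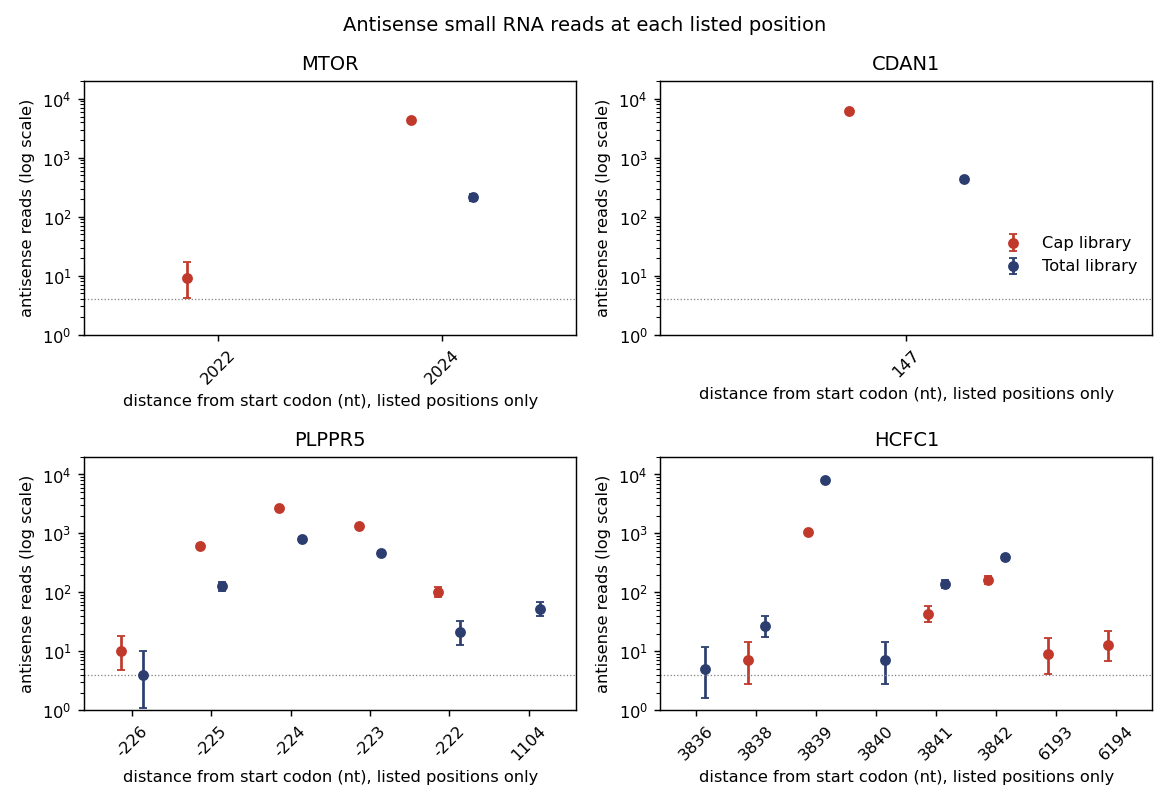
Antisense reads at each listed position of the 4 genes, on a log scale, in the Cap library (red, left of each pair) and the Total library (blue); bars are exact 95% Poisson intervals and the dotted line marks the lowest listed count of 4. CDAN1 has 1 position, with 6206 reads in Cap and 435 in Total, and HCFC1 at 3839 nt is the reverse, with 1054 in Cap and 8085 in Total.

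Of the 4 genes, 3 had at least 2-fold higher and 1 at least 2-fold lower shares in Cap than in Total. Over all 2272 genes, with an unlisted gene set at a floor of 3 reads, 41.9% were at least 2-fold higher in Cap and 18.6% at least 2-fold lower. At that floor every gene listed only in Cap counts as 2-fold higher, even with the lowest listed count of 4 reads. A gene listed only in Total needs more reads to count as lower, so these shares follow in part from the floor. Among the 775 genes listed in both, 50.3% were at least 2-fold higher and 12.1% at least 2-fold lower. Among genes listed in both, an excess in Cap was thus the common case on this scale. The scale divides by list totals, which single genes can move. ENST00000695456, a transcript without a symbol, held 30157 of the 119784 reads in Total and 2988 of the 78796 in Cap. More genes were listed antisense in Total (1709) than in Cap (1338). Whether the common direction holds on another scale was not computed. PLPPR5 stood at place 122 from the top of those 775 genes, and HCFC1 at place 37 from the bottom.

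**Figure D2:**
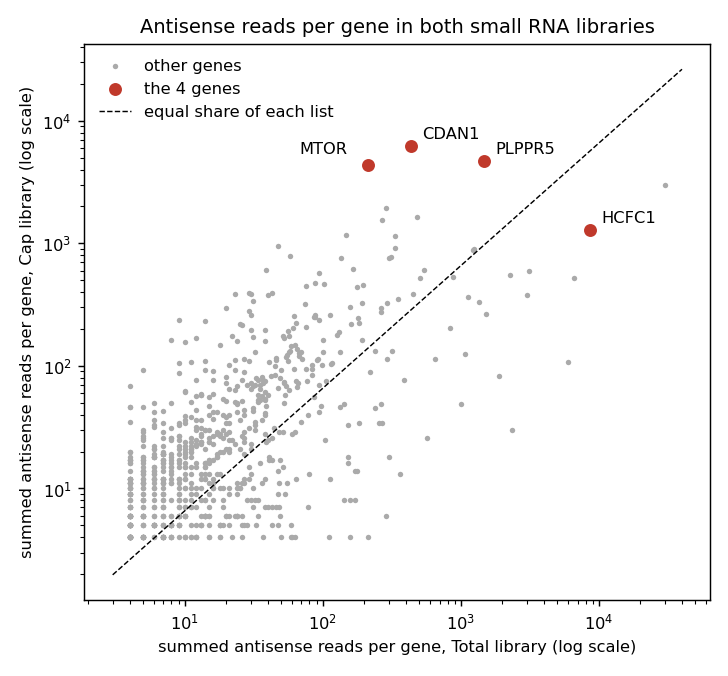
Summed antisense reads per gene in the Cap library (vertical, log scale) against the Total library (horizontal, log scale) for the 775 genes listed in both; the dashed line marks an equal share of each list. MTOR, CDAN1 and PLPPR5 lie above the line and HCFC1 lies below it.

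The names given do not follow a strict cut by the highest position. In Cap, HCFC1 was the lowest of the 4 at place 9 with 1054 reads, and the next genes below were SLC16A7 with 957, USP27X with 889 and MYOCOS with 859. Other entries stood above HCFC1 in Cap, among them ARID1B with 1650 reads, UQCRC1 with 1224 and the transcript ENST00000695456, which has no symbol here, with 2613. In Total, MTOR was the lowest at place 41 with 214 reads, followed by DNAH10 with 206, STN1 with 203 and TNPO2 with 202. The highest entry in Total was ENST00000695456, with 26274 reads.

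Position was not used to choose the genes. Of their 14 listed antisense positions in Cap, 11 were listed at the same nucleotide in Total, and the 14 in Total likewise shared those 11. Over all genes, 938 positions were shared, which is 51.8% of the Cap list and 38.7% of the Total list. The 4 genes were chosen for high counts, so the 2 shares do not compare positions of like counts. Of the 4 genes, 3 had the main position labelled as coding, beside 54.3% of the 127 genes with at least 100 antisense reads in Cap and 50.5% of the 105 such genes in Total. A single position held at least 90% of the reads in 2 of the 4 genes in Cap and 3 in Total, beside 55.9% of the 127 genes in Cap and 42.9% of the 105 in Total. Sharp antisense peaks were therefore common among genes with many antisense reads.

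Sense reads of the 4 genes were few beside their antisense reads, and none lay within 50 nt of an antisense position. Over all genes, only 4.42% of the antisense positions in Cap and 3.63% in Total had a sense position that near. In each library 2 of the 4 genes had a sense position. The share was 26.0% of the 127 genes with at least 100 antisense reads in Cap and 24.8% of the 105 in Total. CDAN1 had 9 sense reads in Cap, at -26 nt, and none listed in Total. MTOR had none listed in Cap and 12 in Total, at 6131 nt. PLPPR5 had no sense position in either list. Since positions under 4 reads are not listed, a missing entry does not mean that no read was there.

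HCFC1 had the most sense reads, all before the start codon. The position at -416 nt had 124 sense reads in Cap and 7 in Total, and -415 nt had 40 in Cap and 7 in Total, while -664 nt had 9 in Cap only. In Cap, -416 nt stood at place 180 of 4521 sense positions, whose median was 6 reads. As shares of the sense lists, the ratio of Cap to Total was 14.9 (7.03 to 37.9) at -416 nt and 4.81 (2.13 to 12.7) at -415 nt. The sense reads of HCFC1 were thus higher in Cap, and its antisense reads higher in Total. Over all genes, 61.7% of the sense positions in Cap and 12.8% in Total were labelled 5′ UTR, the region before the start codon. More sense positions there in Cap were therefore not particular to HCFC1. Antisense reads made up 88.2% (86.4 to 89.8%) of all listed HCFC1 reads in Cap and 99.8% in Total. For MTOR in Total the share was 94.7% (90.9 to 97.2%), and for CDAN1 in Cap it was 99.9%. Among genes with both strands listed, the median antisense share was 54.2% over 306 genes in Cap and 50.0% over 273 genes in Total. Of these genes, 13.1% in Cap and 10.3% in Total had an antisense share of at least 90%. HCFC1, MTOR and CDAN1 were chosen for high antisense counts, which raise this share. Their high shares thus follow in part from that choice, and setting them beside the medians decides nothing.

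In the RefSeq annotation of GRCh38.p14, used for names only, MTOR and PLPPR5 lie on chromosome 1, CDAN1 on chromosome 15 and HCFC1 on chromosome X. MTOR overlaps 6 other genes, among them the noncoding MTOR-AS1 and the protein-coding ANGPTL7, both on the opposite strand. The rest are the small nucleolar RNA gene LOC124904848 and the pseudogenes RNU6-537P, RNU6-291P and RPL39P6, whose strands were not known here. PLPPR5 overlaps the noncoding PLPPR5-AS1, also on the opposite strand. HCFC1 overlaps the noncoding HCFC1-AS1, and no overlapping gene was found for CDAN1. No miRNA hairpin lies inside any of the 4. Whether the antisense positions fall in those overlapping transcripts was not tested, because the sources used here give no genome build for the peak lists.

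Footprints were listed for MTOR, CDAN1 and HCFC1 in all 8 start and stop window tables, and PLPPR5 was listed in none. Footprints were not used to choose the genes. Read numbers were recovered from the steps of the deposited density values, for 9975 of 16984 transcripts. In bulk samples, fewer cells with a message and less message per cell cannot be told apart, and a footprint level joins the amount of mRNA and its translation.

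CDAN1 had the fewest footprints of the 3. It had 63 reads (8.60 CPM) in trans2, 51 (8.51 CPM) in trans1, 79 (8.61 CPM) in starvation and 42 (4.04 CPM) in control. The 3 starved libraries were nearly equal and control was lower than each of them. The starvation to control ratio was 2.13 (1.45 to 3.18), or 0.93 on the log2(CPM + 1) scale.

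MTOR had 184 reads (25.1 CPM) in trans2, 134 (22.4 CPM) in trans1, 189 (20.6 CPM) in starvation and 269 (25.9 CPM) in control. The starvation to control ratio was 0.797 (0.658 to 0.963). HCFC1 had 589 reads (80.4 CPM) in trans2, 359 (59.9 CPM) in trans1, 530 (57.8 CPM) in starvation and 692 (66.5 CPM) in control. Its starvation to control ratio was 0.868 (0.774 to 0.974). CDAN1 was thus the one of the 3 with more footprints in starvation than in control.

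On the log2(CPM + 1) scale, none of the 3 genes reached 2-fold in starvation against control, where 2.52% of 9971 transcripts were at least 2-fold higher and 1.89% at least 2-fold lower. For CDAN1 this turned on the setting, since its log2 value of 0.93 was 1.07 with a pseudocount of 0.1 and 0.59 with a pseudocount of 5. It was 1.01 without its highest position and 1.08 in the stop window alone, the latter from only 12 against 4 reads. The start window had 2 reads in starvation and 3 in control, too few to pass the limit of 1 CPM. The starvation to control value of CDAN1 exceeded that of 96.8% of all transcripts. Reads were recovered only for transcripts with enough positions holding reads in at least 2 libraries. CDAN1 met this limit in starvation and trans2, and not in control or trans1. Its rank is therefore not independent of how transcripts were recovered. Among 504 transcripts with 30 to 60 control reads, a range chosen after seeing the data, 71 (14.1%) were at least as high as CDAN1 and 11.5% were at least 2-fold higher. Their median was 0.21 on the log2 scale, against -0.005 over all transcripts, so a choice by low control reads came with a shift upward. How far the recovery limit bears on this median or on the rank of CDAN1 was not tested.

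With trans1 against starvation, CDAN1 had a ratio of 0.989 (0.681 to 1.42), MTOR 1.09 (0.864 to 1.36) and HCFC1 1.04 (0.905 to 1.19). Each interval includes equality. None of the 3 reached 2-fold, beside 1.23% of 9966 transcripts higher and 1.38% lower. With trans2 against starvation, CDAN1 had a ratio of 0.999 (0.706 to 1.41), MTOR 1.22 (0.990 to 1.502) and HCFC1 1.39 (1.24 to 1.57). Only the HCFC1 interval excludes equality, at 0.47 on the log2(CPM + 1) scale, where the median of all transcripts was 0.04. None of the 3 reached 2-fold, beside 1.89% of 9974 transcripts higher and 0.221% lower. The small windows gave other values. In the start window alone, HCFC1 had 1.32 on the log2 scale for trans1 against starvation, from 59 against 33 reads. There CDAN1 had 1.23 for trans2 against starvation, from only 8 against 2 reads. In the stop window alone, MTOR had 1.01 for trans2 against starvation, from only 9 against 4 reads. So few reads in the CDAN1 and MTOR windows cannot show a 2-fold shift. All 3 comparisons use the same starvation library, so they are not independent.

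**Figure D3:**
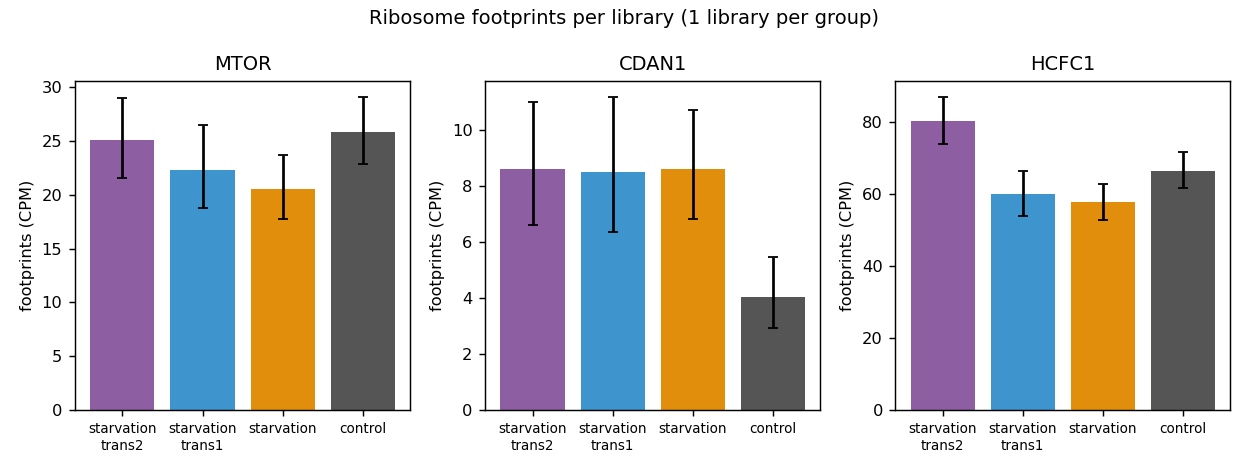
Footprints per 1000000 recovered reads (CPM) of MTOR, CDAN1 and HCFC1 in the 4 Ribo-seq libraries, 1 library per bar; bars start at 0 and error bars are exact 95% Poisson intervals. CDAN1 stands at 8.60, 8.51 and 8.61 CPM in the 3 starved libraries and at 4.04 CPM in control.

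Per length, the order was HCFC1, MTOR, CDAN1 in every library. In control, HCFC1 had 10.9 reads per kilobase and 1000000 reads (RPKM; 10.1 to 11.7), MTOR 3.38 (2.99 to 3.81) and CDAN1 1.10 (0.790 to 1.48). In starvation, HCFC1 had 9.46 RPKM (8.67 to 10.3), MTOR 2.69 (2.32 to 3.10) and CDAN1 2.34 (1.85 to 2.91). MTOR and CDAN1 had overlapping intervals in trans2, trans1 and starvation, and separate ones in control. All 3 were below the median transcript, which had 22.9 to 25.8 RPKM over the 4 libraries.

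Within the start window, from 30 nt before to 300 nt after the start codon, HCFC1 differed between libraries. The window held 5.43% of its reads in trans2 (32 of 589), 16.4% in trans1 (59 of 359), 6.23% in starvation (33 of 530) and 7.51% in control (52 of 692). The trans1 share was 2.64 times the starvation share, and its interval (12.8 to 20.7%) lies above that of starvation (4.32 to 8.63%). Of 3418 transcripts with at least 300 reads in both libraries, 18 (0.527%) had a ratio as high, and of 265 with a coding length of at least 3000 nt, 7 (2.64%) did. This summary was chosen after the values were seen.

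From 147 to 162 nt past the start codon, a stretch also chosen after its values were seen, HCFC1 had 7 reads (1.19% of all HCFC1 reads) in trans2, 44 (12.3%) in trans1, 24 (4.53%) in starvation and 29 (4.19%) in control. The highest single position of the window lay in that stretch in trans1, starvation and control, and not in trans2. Trans1 and trans2 carry the same treatment label and lay on opposite sides of starvation here. MTOR had 9.78% of its reads in the start window in trans2, 3.73% in trans1, 7.41% in starvation and 8.18% in control, with overlapping intervals. For CDAN1 the window held at most 8 reads in a library.

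**Figure D4:**
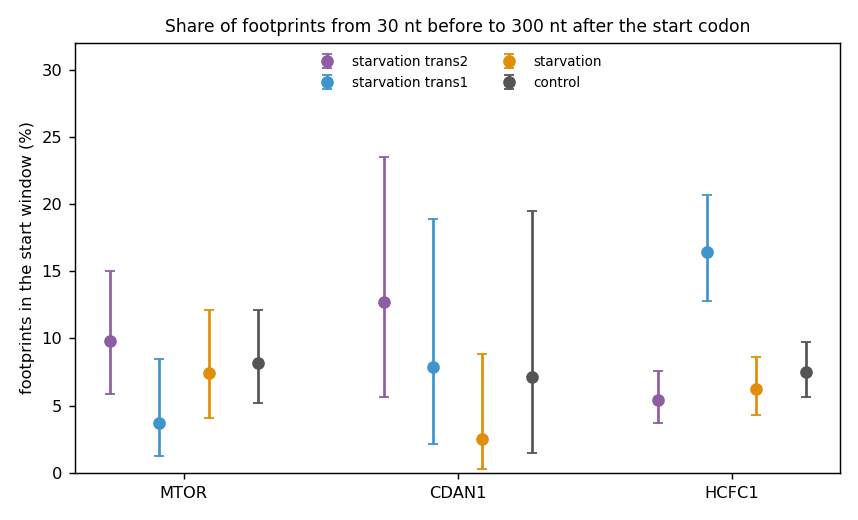
Percent of the footprints of MTOR, CDAN1 and HCFC1 that lie in the start window, from 30 nt before to 300 nt after the start codon, in the 4 Ribo-seq libraries; bars are exact 95% binomial intervals. HCFC1 in trans1 stands at 16.4%, with 5.43% in trans2, 6.23% in starvation and 7.51% in control.

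Of the antisense positions of the 3 genes, only that of CDAN1 at 147 nt lies inside a deposited window. The 4 libraries together had 17 CDAN1 reads in the first 300 nt. Within 15 nt of the antisense position there were 3 reads in trans2, 0 in trans1, 0 in starvation and 3 in control. All 6 lay at 159 nt, which is 12 nt past the antisense position. The offset between a footprint's listed position and the ribosome is not stated in the labels, and this many reads cannot show a rise or a gap at the site.

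**Figure D5:**
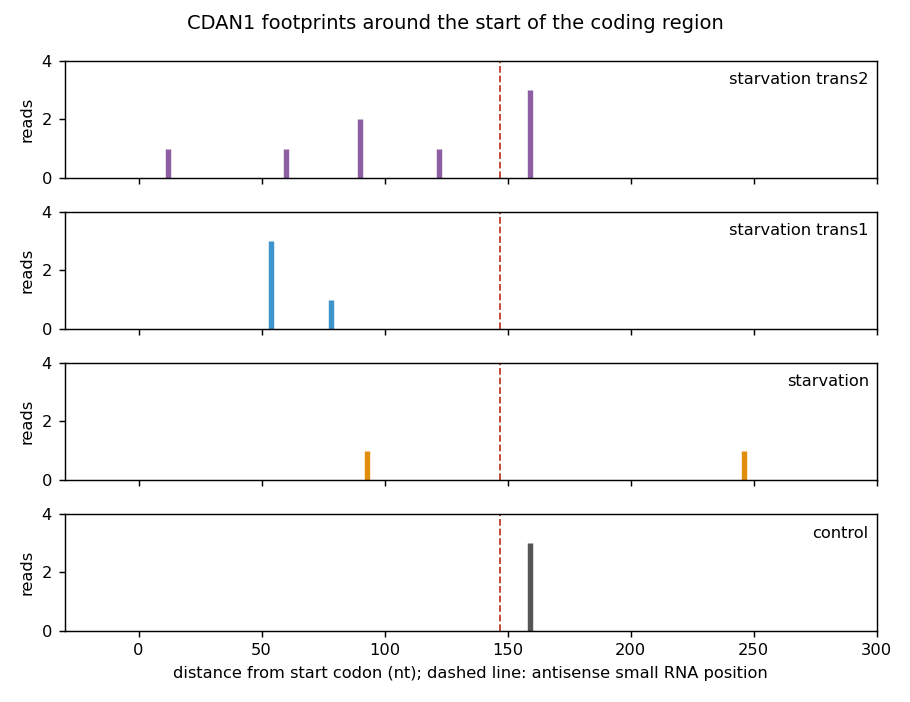
CDAN1 footprints (reads) by distance from the start codon (nt) in the 4 Ribo-seq libraries; the dashed line marks the antisense position at 147 nt. The 3 reads at 159 nt appear in trans2 and in control, and no read lies within 5 nt of the line.

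The first 300 nt of the 3 genes held footprints mostly in the coding frame, with 86.4% of 59 reads for MTOR, 94.1% of 17 for CDAN1 and 82.6% of 172 for HCFC1. The share over all transcripts was 86.3%; this 3-nt pattern is the mark of translating ribosomes.

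In the authors' deposited table of log2 fold changes by reading frame, MTOR had 1 truncated frame, at -0.02 for starvation against control and near 0 in both trans-RNA comparisons. HCFC1 had 2 truncated frames and 5 upstream frames in the authors' deposited table, and they did not move as one. Its first upstream frame had 0.63 for starvation against control, -0.61 for trans1 against starvation and -0.43 for trans2 against starvation in that table, and another upstream frame had 0.62 for starvation against control, -0.76 for trans1 against starvation and -0.43 for trans2 against starvation there. The other 3 upstream frames had -0.55, -0.05 and 0.09 for starvation against control in the authors' deposited table. In the same order they had -0.14, 0.25 and 0.23 for trans1 against starvation, and 0.30, 0.11 and 0.20 for trans2 against starvation. The truncated frames of HCFC1 had -0.43 and -0.03 for starvation against control, -0.09 and -0.03 for trans1 against starvation, and 0.32 and 0.003 for trans2 against starvation in the authors' deposited table. The medians of the authors' deposited table were -0.08 for starvation against control, -0.39 for trans1 against starvation and -0.19 for trans2 against starvation. CDAN1 and PLPPR5 had no frame there, and the scaling of the table is unknown.

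The counts of genes with a position that follow have no share over all annotated genes to be read against, because the lists hold only genes with a position. The median listed antisense position had 8 reads in both libraries. Of 55 genes of the mTOR complexes and their regulators, 5 had an antisense position in Cap and 3 in Total, and 16 had a sense position in Cap and 4 in Total. The antisense ones included SEC13, a subunit of the GATOR2 complex, with 11 reads in Cap and 6 in Total, and the kinase AKT1, with 10 in each. Of the 15 with footprints, none reached 2-fold in any comparison. Over all transcripts, 0.221% to 2.52% did so in a given comparison and direction. The medians of the 15 were -0.19 for starvation against control, -0.19 for trans1 against starvation and 0.07 for trans2 against starvation. Their values for starvation against control ran from -0.87 for RPTOR, the scaffold of mTOR complex 1, to 0.95 for ULK2, a kinase that starts autophagy.

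Of 27 partners of host cell factor 1, 1 had an antisense position in Cap and 5 in Total. The corepressor SIN3A was listed antisense in both, with 17 reads in Cap and 4 in Total, and POU2F1, which host cell factor 1 binds in a viral activator complex, had 14 in Total. None of the 9 with footprints reached 2-fold in any comparison, beside the same 0.221% to 2.52% over all transcripts. Of 18 genes for codanin 1 partners, histone chaperones and other genes of dyserythropoietic anaemia, 5 had an antisense position in Cap and 3 in Total. The histone-binding protein RBBP4 had the most, with 54 antisense reads in Cap and 19 in Total. Of the 12 with footprints, only CDIN1, the partner that codanin 1 stabilises, was past 2-fold, at -1.49 for trans1 against starvation. Of all 9966 transcripts, 1.38% were at least 2-fold lower there and 1.23% at least 2-fold higher, so 1 gene of 12 is no result about this list. Of 14 genes related to PLPPR5, 2 had an antisense position in Cap and 2 in Total, the highest being the phosphatase PLPP6 with 13 reads in Total.

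By the Euclidean distance over the 3 log2 footprint ratios, among 2670 named transcripts with at least 10 CPM in 1 library, the nearest to MTOR were UBE2Z at 0.03, MCL1 at 0.05 and DDIAS at 0.06. Nearest to CDAN1 were SPRED1 at 0.07, GID4 at 0.08 and RSPH3 at 0.11. Nearest to HCFC1 were UFL1 at 0.05, EFNA1 at 0.08 and SPRY1 at 0.10. These distances rest on 4 libraries that share the starvation sample.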

How the data were processed

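Per the file headers, each row of a deposited peak list gives the read count of 1 position, with its distance from the start codon and a region label. For small RNA, the aligner, peak caller, genome build and the handling of reads with several matches are not given in the sources used here. For Ribo-seq, the submitters' processing notes list STAR 2.7.10a, Bowtie 1.2.3, cutadapt 2.8 and bcl2fastq 2.20.0.422, and the mouse build GRCm39, although the transcript IDs are human.

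Footprint tables hold the authors' signal at each nucleotide near the start and the stop codon, divided by the transcript's own mean. The design assumed a value per gene, which these are not: each value is a whole multiple of coding length over reads. Reads and lengths were solved from these steps where at least 8 positions in at least 2 libraries held reads. A simulation drawn from recovered transcripts required right ratios between libraries, and did not require right lengths or read numbers. If the solved length is a fraction of the real one, reads shrink by the same factor and reads per length do not change. The total may include reads outside the coding region. Reads were scaled to 1000000 recovered reads (CPM), and folds are log2 of CPM with a pseudocount of 1 for transcripts with at least 1 CPM. The authors' fold tables hold log2 fold changes per reading frame; how they were scaled is not stated. The deposited lists of called frames and the liver tables were not used.

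Antisense reads were summed per gene and divided by the list total, with a floor of 3 reads where a gene was not listed. Intervals are exact Poisson or Clopper-Pearson (95%). With 1 library per group there were no tests. Named genes were the 4, the 3 next below the lowest of them in each library, the 3 nearest by footprint ratios, and listed genes past 2-fold or with antisense reads, of which examples are given; RPTOR, ARID1B, UQCRC1 and ENST00000695456 were added after their values were seen. The genes and lists were chosen with earlier results of these data known. Symbols came from the peak lists and reference tables, which paired 5745 transcripts. Work used Python 3.11.15, pandas 2.3.3, numpy 2.4.6, SciPy 1.17.1 and matplotlib 3.10.9.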

Additional observations from a re-analysis of the deposited data

How the results depend on the processing

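In all 8 alternatives, which changed the lowest count, the value per gene, the merging of positions, the scale or the floor, 3 of the 4 genes were at least 2-fold higher in Cap. The change of the floor could not alter this, because all 4 genes are listed in both libraries. The log2 ratio of Cap to Total kept its direction for each gene, from 4.09 to 5.15 for MTOR, 3.59 to 4.64 for CDAN1, 1.42 to 2.48 for PLPPR5 and -2.99 to -1.94 for HCFC1. The 4 genes held 22.2% of the Cap list and 9.44% of the Total list with at least 8 reads a position, and 23.97% of the Cap list and 10.2% of the Total list with at least 20. In Total they held 9.79% by the highest position and 9.69% with positions within 10 nt merged. The antisense share of their reads was 99.08% in Cap by the highest position, and 99.9% and 100% in Total with at least 8 and 20 reads. The sense positions of the 4 genes in Total had only 7, 7 and 12 reads, so these cuts fixed the rise in Total. The 11 shared Cap positions became 12 within 5 or 15 nt. The median footprint log2 of 3 genes, -0.20 for starvation against control, was -0.41 in the stop window alone. For trans1 against starvation the median of 0.05 was 0.73 in the start window and 0.26 in the stop window. The genes went apart there, on few reads. MTOR had -0.65 in the start window (5 against 14 reads) and 0.71 in the stop window (6 against 4 reads). HCFC1 had 1.32 in the start window (59 against 33 reads) and -0.24 in the stop window (13 against 24 reads). Over all reads the values were 0.11 for MTOR and 0.05 for HCFC1. For trans2 against starvation, CDAN1 had 1.23 in the start window (8 against 2 reads) and MTOR 1.01 in the stop window (9 against 4 reads). Over all reads the values were -0.002 for CDAN1 and 0.27 for MTOR. CDAN1 ranged from 0.59 to 1.08 for starvation against control. The 6 CDAN1 reads within 15 nt of the antisense position were 0 within 5 nt and 7 within 30 nt. The start window gave no starvation to control value for CDAN1, whose 2 reads in starvation and 3 in control fell under the limit of 1 CPM. The range of 0.59 to 1.08 therefore leaves that window out. The cause of these shifts was not tested. No paired analysis was possible because each group holds 1 library, and for the same reason no replicate could be left out. Depth limits the CDAN1 footprints most, with 42 to 79 reads a library.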

Other observations

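The region labels and the recovered lengths did not always match. Of the antisense positions labelled as coding on transcripts with a recovered length, 36 of 366 in Cap (9.84%) and 51 of 546 in Total (9.34%) lay beyond that length. On the sense strand the numbers were 39 of 478 in Cap (8.16%) and 83 of 955 in Total (8.69%). The HCFC1 positions at 6193 and 6194 nt are among them, and the PLPPR5 position at 1104 nt could not be checked because PLPPR5 has no recovered length.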
